A study of Bos taurus with 3 samples.

Results

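The genes described here encode carriers of the SLC25 family, mostly of the mitochondrial inner membrane, and machinery that brings proteins into mitochondria. They were chosen by symbol: all genes listed in any of the 3 libraries whose symbol starts with SLC25A, TIMM or TOMM followed by a digit. The rule found 48 of 9154 listed genes, which carry 47 symbols, since SLC25A37 has 2 entries. Of the 48, 31 were carriers (SLC25A) and 17 were import genes (TIMM and TOMM). The samples were mammary tissue of Holstein cows in their second parity, taken at about 35 days before parturition (−35 d, the dry period), about 7 days before parturition (−7 d) and 3 days after parturition (+3 d, colostrum production). Each time point had tissue of 6 cows, which was pooled before RNA isolation and made into 1 library, so the 18 cows gave 3 libraries without replicates. Expression was measured by digital gene expression profiling (DGE), in which a short tag next to a CATG site near the 3′ end of each transcript is sequenced and counted. The change from −35 d to −7 d is called stage I and that from −7 d to +3 d stage II. Because the tissue holds several cell types, fewer cells of a type and less RNA per cell cannot be told apart in these libraries.

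The inner membrane of mitochondria lets few solutes through, and the SLC25 carriers exchange nucleotides, phosphate, carboxylates, amino acids and cofactors across it. Most mitochondrial proteins, the carriers included, are made in the cytosol. They pass the outer membrane through the TOM complex (TOMM genes), and are then handled by the TIM23 complex, which moves proteins with a presequence, or by small TIMM chaperones and the TIM22 complex, which insert carriers. In the mammary gland of ruminants, mitochondria supply the ATP and the citrate and isocitrate used for milk synthesis.

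Sequencing gave 5914422 clean tags for −35 d, 5593237 for −7 d and 5845821 for +3 d. Levels are given in TPM, here tags of a gene per 1000000 clean tags of its library, with no term for transcript length, so that levels of different genes show numbers of tags and not transcripts per length. Intervals given with the values are 95% intervals for counting error only. They leave out the spread among cows, which these pools do not show. A gene was called upregulated or downregulated at FDR ≤0.001 and |log2 ratio| ≥1 by the Audic-Claverie exact test with Benjamini-Hochberg adjustment over all genes. This test compares libraries and not conditions. The genes that each held over 1% of the clean tags of a library were CSN1S1, CSN2, CSN3, CSN1S2 and PAEP, which encode caseins and beta-lactoglobulin. Tags on listed genes made up 40.5%, 41.4% and 53.0% of the clean tags at −35 d, −7 d and +3 d. With TMM scaling, which sets the libraries on the bulk of genes, all log2 ratios move up by 0.19 in stage I, by 0.31 in stage II and by 0.50 from −35 d to +3 d, and changes are therefore given relative to both scales where the call differs.

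Of the 48 genes, 45 were listed in all 3 libraries, 46 had a mean of at least 1 TPM and 38 a mean of at least 5 TPM. Their summed level was 1996 TPM at −35 d, 2256 TPM at −7 d and 1423 TPM at +3 d. SLC25A6, an adenine nucleotide translocase that exchanges ADP for ATP, held 37.7%, 43.1% and 44.6% of these tags. Without it the sums were 1244, 1284 and 789 TPM. The +3 d library was the lowest on the TPM scale, with or without SLC25A6. On the TMM scale the full sums were 1702, 2195 and 1714 TPM, so that −7 d was highest and the libraries at −35 d and +3 d lay close together. Without SLC25A6 the TMM sums were 1061, 1249.7 and 950.0 TPM, lowest at +3 d. On the TPM scale, 35 of the 48 genes (72.9%) had their lowest level at +3 d, against 51.9% of all genes. On the TMM scale these shares were 27 of 48 (56.3%) and 33.5%. In stage II, 7569 of 9154 listed genes had a tag and a mean of at least 1 TPM, beside 46 of 48 members. Genes with few tags can seldom be called, and they make up more of all genes than of the members. Shares of calls over all genes are thus not matched for abundance. Levels of the members in all libraries are shown in the plot of TPM by role.

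**Figure D1:**
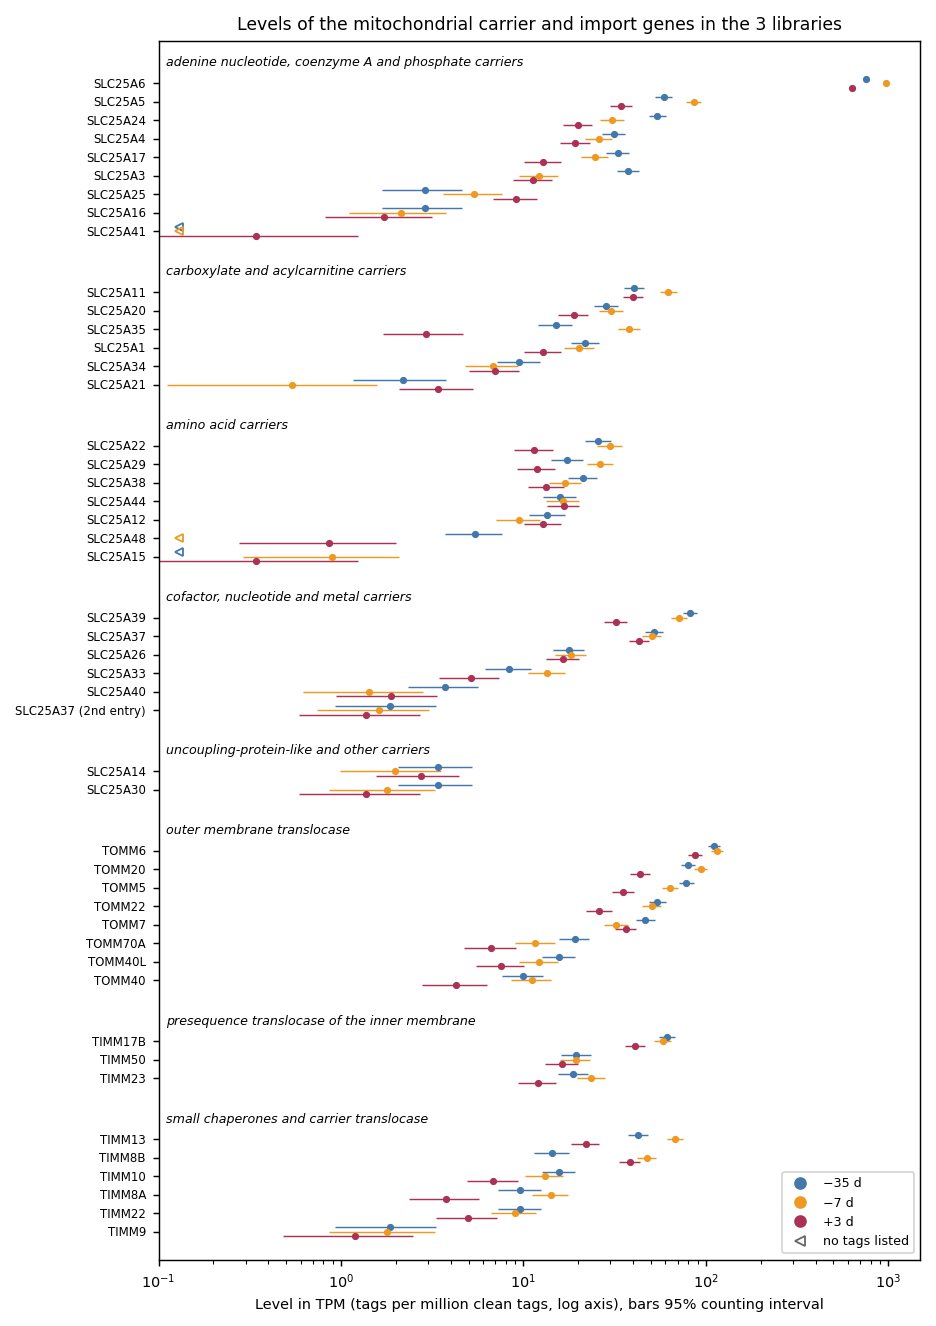
Level of 47 of the 48 genes (TPM, log axis) in the libraries at −35 d (blue), −7 d (orange) and +3 d (red), grouped by role, with bars for the 95% counting interval and open triangles where no tags were listed. SLC25A6 lies above all others in each library, and most genes have their lowest level at +3 d (35 of all 48).

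In stage I, 4 of the 47 members with a tag in either library were called, which is 8.51% of them, against 9.07% of all genes tested, so the share was near the background. SLC25A35 and TIMM8B were upregulated, where 2.62% of all genes were. SLC25A3 and SLC25A48 were downregulated, where 6.45% of all genes were. All 4 calls were also made with TMM scaling, which called 8.12% of all genes, 4.22% as upregulated and 3.9% as downregulated. The median log2 ratio of the 46 members with at least 1 TPM was −0.09, beside −0.19 for all genes. On the TMM scale it was 0.10, beside −0.00 for all genes, so the sign of the members' median depends on the scale. The ratios of the members not called, where both libraries had over 3 tags, ran from −1.38 for SLC25A40 to 0.90 for SLC25A25.

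In stage II, 10 members were downregulated and 0 were upregulated, which is 20.8% of the 48. Among all genes tested, 13.5% were called, 10.4% as downregulated and 3.12% as upregulated. The 10 were the carriers SLC25A5, SLC25A22, SLC25A29, SLC25A33, SLC25A35 and SLC25A39 and the import genes TIMM8A, TIMM13, TOMM20 and TOMM40. The median log2 ratio of the members was −0.58, beside −0.31 for all genes. Ratios were below 0 for 37 of 46 members and for 5052 of 7569 genes with at least 1 TPM. With TMM scaling, 5 members were downregulated (SLC25A5, SLC25A22, SLC25A35, TIMM8A and TIMM13) and 1 was upregulated (SLC25A21). Among all genes 10.8% were then called, 4.9% as downregulated and 5.87% as upregulated. The median of the members on that scale was −0.27, beside −0.00 for all genes, with 31 of 46 ratios below 0, beside 3792 of 7569.

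Between −35 d and +3 d, 16 of the 48 members were called, or 33.3%, against 18.6% of all genes. Of these, 14 were downregulated, where 16.3% of all genes were, and 2 were upregulated, where 2.33% of all genes were. Of the 16, 8 were called in neither stage, and the matching share among all genes was not counted. With TMM scaling 5 members were called, or 10.4%, against 11.2% of all genes, which is close to the background. These were SLC25A25 and TIMM8B, upregulated as 6.23% of all genes were, and SLC25A3, SLC25A35 and TOMM70A, downregulated as 4.94% of all genes were. The share of calls that were lower went from 87.5% to 60.0% for the members, and from 87.5% to 44.2% for all genes. The median of the members was −0.69 on the TPM scale and −0.20 on the TMM scale, beside −0.53 and −0.03 for all genes. The comparisons share libraries, so their results are not independent of each other.

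**Figure D2:**
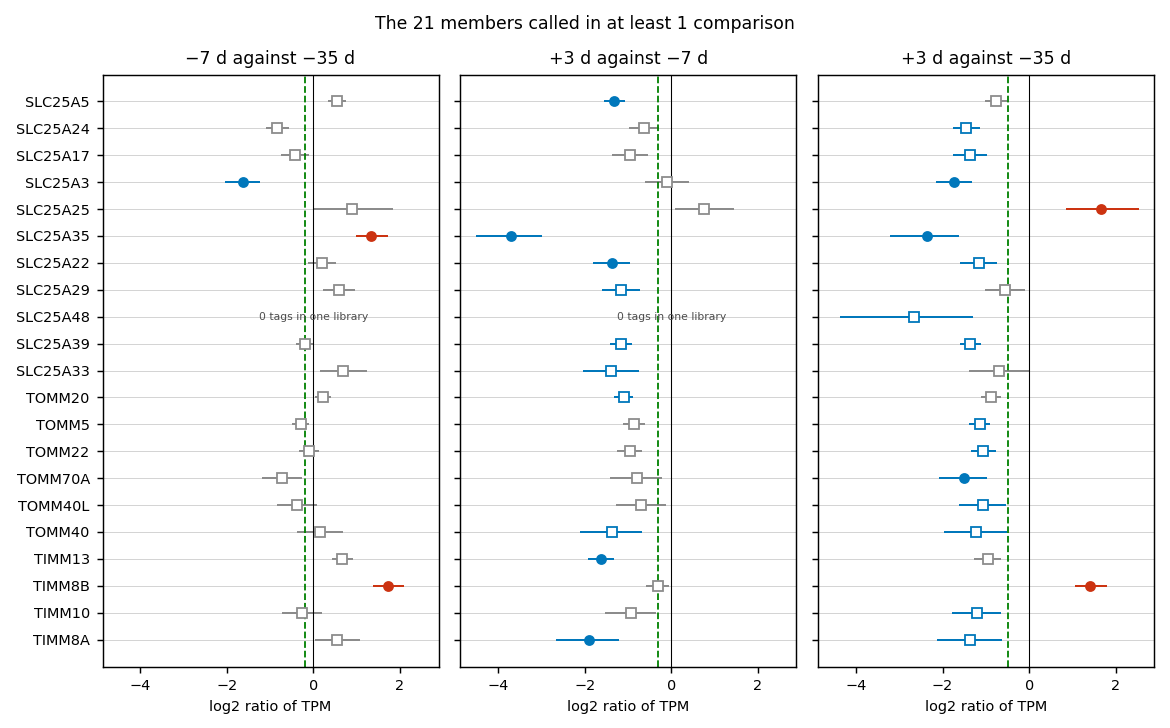
log2 ratio of TPM with 95% counting interval for the 21 members called in at least 1 comparison, with stage I, stage II and +3 d against −35 d as panels. Red and blue mark up- and downregulated members on the TPM scale and grey no call, filled circles mark those also called with TMM scaling, and the green dashed line is the place of 0 on the TMM scale. SLC25A35 is red in stage I and blue in stage II.

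Among the carriers, the adenine nucleotide translocase SLC25A6 came first by number of tags in each library. SLC25A6 had 751.6 TPM at −35 d, 971.5 TPM at −7 d and 634.3 TPM at +3 d, and ranked 62, 46 and 52 among the listed genes by tags. It was highest at −7 d, but no ratio reached 2-fold. Its log2 ratio was 0.37 (0.31 to 0.43) in stage I and −0.62 (−0.68 to −0.55) in stage II. From −35 d to +3 d the ratio was −0.24 on the TPM scale and 0.25 on the TMM scale, so its direction flipped with the scaling. SLC25A5, a second translocase that is common in dividing cells, had 58.8, 85.8 and 34.4 TPM in the same order. It was highest at −7 d and lowest at +3 d. It was downregulated in stage II, with a log2 ratio of −1.32 (−1.56 to −1.08; adjusted p = 8.7e-29, Audic-Claverie exact test). The ratio was −1.01 and still called with TMM scaling, and −0.996 and not called with DESeq2 size factors. SLC25A4, the translocase typical of heart and skeletal muscle, had 31.3, 25.9 and 19.2 TPM and was not called. Of the 7 listed markers of skeletal muscle, DES, which smooth muscle also expresses, had 37.4, 39.3 and 179 TPM and was upregulated in stage II and from −35 d to +3 d on both scales. The other 6 markers, MYH2, CKM and ACTA1 among them, reached at most 1.03 TPM in any library.

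The other carriers of this role move phosphate, ATP-Mg or coenzyme A. SLC25A3, which carries the phosphate used for ATP synthesis, had 37.5 TPM at −35 d, 12.2 TPM at −7 d and 11.3 TPM at +3 d. The −35 d library was high and the other libraries were alike within counting error. SLC25A3 was downregulated in stage I (log2 ratio −1.63, −2.04 to −1.23; adjusted p = 3.0e-17, Audic-Claverie exact test) and between −35 d and +3 d (−1.73), on either scale. SLC25A24 and SLC25A25 are calcium-regulated ATP-Mg/phosphate carriers. SLC25A24 had 54.3, 30.6 and 19.8 TPM, and was downregulated between −35 d and +3 d (−1.45, −1.77 to −1.14). On the TMM scale that ratio was −0.95 and below the fold threshold. SLC25A25 had 2.87, 5.36 and 9.07 TPM, from 17, 30 and 53 tags, an order opposite to that of SLC25A24. It was upregulated between −35 d and +3 d, with a log2 ratio of 1.66 (0.85 to 2.54; adjusted p = 3.7e-05, Audic-Claverie exact test), and was called in neither stage. SLC25A17, a carrier of coenzyme A and other cofactors that sits in peroxisomes rather than mitochondria, had 33.0, 24.7 and 12.8 TPM. Its level was lower at +3 d than at −35 d by 1.36 on the log2 scale on TPM, which was called, and its TMM ratio of −0.86 was not. SLC25A16, linked to coenzyme A uptake, had 2.87, 2.15 and 1.71 TPM. SLC25A41, a carrier of ATP-Mg and phosphate, was not listed in the earlier libraries and had 2 tags at +3 d. Where 0 tags were counted, the true level could reach that of 3 tags, which is 0.507 TPM for −35 d, 0.536 TPM for −7 d and 0.513 TPM for +3 d, and a gene not listed may still have had tags.

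Among the carboxylate and acylcarnitine carriers, SLC25A35 stood apart from the other members. It is a carrier whose substrate is not settled, and it had 15.0 TPM at −35 d, 38.1 TPM at −7 d and 2.91 TPM at +3 d, from 89, 213 and 17 tags. The −7 d library was high and the +3 d library was low, and the counting intervals of the libraries did not overlap. The log2 ratio was 1.34 (0.98 to 1.71) in stage I and −3.71 (−4.52 to −3.00) in stage II, a 13.1-fold lower level. The adjusted p was 2.1e-13 in stage I and 6.7e-45 in stage II (Audic-Claverie exact test). It was the only member called in both stages, and was also downregulated from −35 d to +3 d (−2.37, −3.21 to −1.61). These calls held on either scale. The paper reported further genes that differed in both stages, and the share of all genes called in both was not counted here.

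SLC25A11, the oxoglutarate/malate carrier of the malate-aspartate shuttle, had 40.4, 62.4 and 40.0 TPM. It was highest at −7 d, with ratios of 0.63 in stage I and −0.64 in stage II that did not reach 2-fold. From −35 d to +3 d its ratio was −0.01 on the TPM scale and 0.48 (0.22 to 0.75) on the TMM scale. SLC25A1, which exports citrate to the cytosol, had 21.8, 20.2 and 12.8 TPM, from 129, 113 and 75 tags. It was called in no comparison, and its log2 ratio in stage II was −0.66 (−1.10 to −0.22). Of the 8 listed genes on a list of cytosolic enzymes of citrate, acetyl-CoA, fatty acid and NADPH metabolism, 2 were called in stage I (25%, against 9.07% of all genes) and the same 2 in stage II (25%, against 13.5%). With TMM scaling 1 was called in stage II (12.5%, against 10.8%). FASN, which makes fatty acids, had 660 TPM at −35 d, 2804 TPM at −7 d and 653 TPM at +3 d, and ACSS2, which makes acetyl-CoA from acetate, had 30.3, 78.8 and 32.3 TPM. Both were called higher at −7 d than in either other library, although the stage II ratio of ACSS2 was −0.98 and not called with TMM scaling. The other genes of the list, ACLY, ACACA, IDH1, ME1, ACO1 and MDH1, were called in no comparison, and their stage I ratios ran from −0.49 for ACO1 to 0.43 for ACACA. SLC25A20, the carnitine/acylcarnitine carrier, had 28.4, 30.4 and 18.8 TPM and was not called. SLC25A34, a relative of SLC25A35, had 9.47, 6.79 and 7.01 TPM and was not called either. SLC25A21, a carrier of oxoadipate, had 13, 3 and 20 tags (2.20, 0.536 and 3.42 TPM). Its −7 d library was the lowest, and it was upregulated in stage II with TMM scaling, DESeq2 size factors or totals without the most abundant genes, but not on the TPM scale. With 3 tags at −7 d it had too few for a ratio in either stage. From −35 d to +3 d its log2 ratio was 0.64 (−0.44 to 1.77) and was called on neither scale.

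Among the 7 genes placed with the amino acid carriers, 1 was called in stage I, 2 in stage II and 2 from −35 d to +3 d. The shares of all genes called were 9.07%, 13.5% and 18.6%. SLC25A48 gave the stage I call and 1 of those from −35 d to +3 d. With TMM scaling, 1, 1 and 0 of the 7 were called, where 8.12%, 10.8% and 11.2% of all genes were. SLC25A22, a glutamate carrier, had 25.7, 29.7 and 11.5 TPM. It was low at +3 d, with a log2 ratio of −1.37 (−1.80 to −0.96) in stage II. Its ratio from −35 d to +3 d was −1.17 and called, and the TMM ratio of −0.67 was not. SLC25A29, a carrier of basic amino acids, had 17.4, 26.3 and 11.8 TPM. It was highest at −7 d and was downregulated in stage II (−1.15, −1.59 to −0.73), a call that was lost with TMM scaling (−0.85). SLC25A48, a less studied carrier, had 5.41, 0 and 0.855 TPM, from 32, 0 and 5 tags. It was high at −35 d alone. With 0 tags set at 3 tags, and counting error at −35 d left out, its level on the TPM scale was at least 10.1-fold lower at −7 d than at −35 d, and it was called downregulated in stage I. SLC25A48 was also downregulated from −35 d to +3 d (−2.66, −4.38 to −1.29), but the TMM ratio of −2.16 did not pass the FDR threshold. The others were SLC25A38 (glycine), SLC25A44 (branched-chain amino acids), SLC25A12 (aspartate/glutamate) and SLC25A15 (ornithine). SLC25A38 had its highest level, 21.1 TPM, at −35 d and its lowest, 13.3 TPM, at +3 d, and SLC25A12 had 13.5, 9.48 and 12.8 TPM. SLC25A44 was nearly level at 15.9, 16.4 and 16.6 TPM, and SLC25A15 had at most 5 tags in a library.

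Among the 7 entries of cofactor, nucleotide and metal carriers, SLC25A39 and SLC25A33 were called. In stage II 2 of 7 were called (28.6%, against 13.5% of all genes), and from −35 d to +3 d 1 of 7 (14.3%, against 18.6%). In stage I 0 were called, where 9.07% of all genes were. With TMM scaling 0 were called in any comparison, where 8.12%, 10.8% and 11.2% of all genes were. SLC25A39, which is needed for glutathione uptake, had 82.0, 71.3 and 32.0 TPM. The +3 d library was low and the earlier libraries were nearer to each other. It was downregulated in stage II (−1.16, −1.42 to −0.90) and between −35 d and +3 d (−1.36), and neither call was made with TMM scaling. SLC25A33, a pyrimidine nucleotide carrier, had 8.28, 13.4 and 5.13 TPM. Its stage II ratio of −1.39 (−2.05 to −0.76) was called, and the TMM ratio of −1.08 did not pass the FDR threshold. SLC25A37, mitoferrin-1, which takes up iron, had 52.1, 50.4 and 43.1 TPM under 1 accession. The other accession under this symbol had 1.86, 1.61 and 1.37 TPM and goes by another symbol, LOC523756, in a newer annotation. SLC25A26 (S-adenosylmethionine) and SLC25A40 (a relative of SLC25A39) were not called. SLC25A26 had 17.8, 18.2 and 16.4 TPM, and its counting intervals overlapped across the libraries. SLC25A40 had 3.72, 1.43 and 1.88 TPM. The uncoupling-protein-like carriers SLC25A14 and SLC25A30 had at most 3.38 TPM in any library and were not called.

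The import genes summed to 609 TPM at −35 d, 644 TPM at −7 d and 393 TPM at +3 d. In stage II, 16 of the 17 ratios were below 0 on the TPM scale and 15 on the TMM scale. Among all genes with at least 1 TPM, 5052 of 7569 ratios were below 0 on the TPM scale and 3792 on the TMM scale. The median log2 ratio in stage II was −0.84 for the import genes and −0.35 for the carriers, beside −0.31 for all genes. On the TMM scale these medians were −0.53 and −0.04, beside −0.00. Calls in stage II were 4 of 17 import genes (23.5%) and 6 of 31 carriers (19.4%), all downregulated, beside 10.4% of all genes. With TMM scaling, 2 of 17 import genes (11.8%) and 3 of 31 carriers were downregulated, where 4.9% of all genes were, and 1 carrier was upregulated. In either direction the shares were 11.8% and 12.9%, beside 10.8% of all genes. Whether import genes and carriers differ was not tested. The spread of both groups is shown in the plot of ratios by family.

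**Figure D3:**
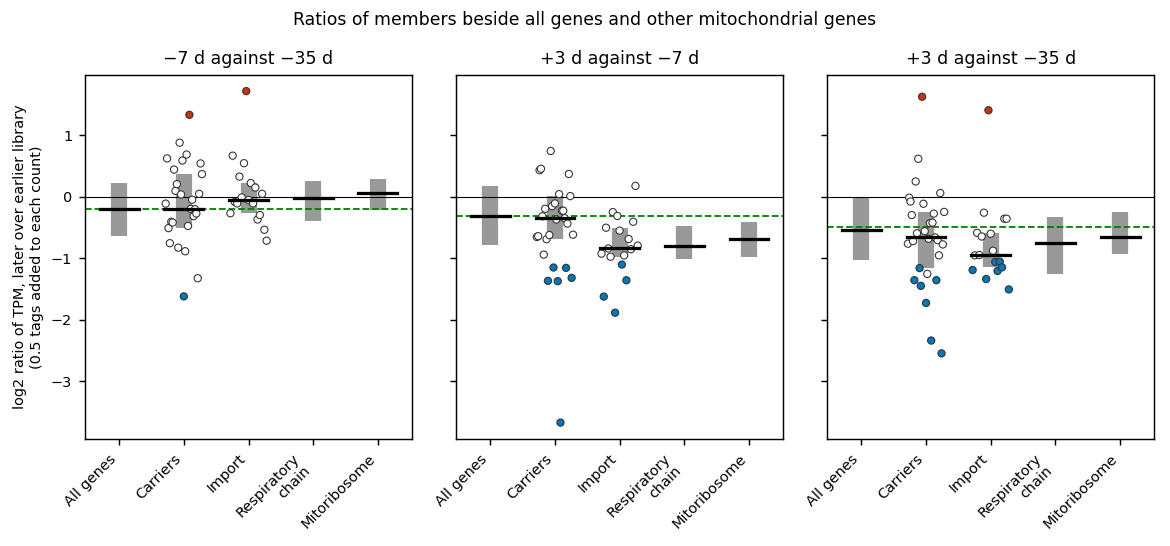
log2 ratio of TPM (later over earlier library, 0.5 tags added) in the 3 comparisons, with points for carriers and import genes (red upregulated, blue downregulated, white not called) and, for each family and all genes, a black line at the median and a grey bar over the middle 50% of ratios. Members under 1 TPM on average or with 3 or fewer tags in a library are left out of the points, the green dashed line is the place of 0 on the TMM scale, and the median of import genes in stage II (−0.84) lies below that of all genes (−0.31).

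In the outer membrane translocase, the receptors are TOMM20, TOMM22 and TOMM70A, and the pore is TOMM40. Of the 8 listed TOMM genes, 0 were called in stage I, where 9.07% of all genes were. In stage II 2 were called (25%, against 13.5%), and from −35 d to +3 d 5 were (62.5%, against 18.6%). With TMM scaling 0 were called in the stages and 1 from −35 d to +3 d (12.5%, against 11.2%). TOMM20, which binds presequences, had 80.1, 93.7 and 43.6 TPM. It was low at +3 d and was downregulated in stage II (−1.10, −1.32 to −0.88), but not with TMM scaling (−0.79). TOMM22, the central receptor, had 54.3, 50.4 and 26.0 TPM. Its ratio from −35 d to +3 d was −1.06 and called, and its TMM ratio was −0.56 and not called. TOMM70A, the receptor that takes carriers with the help of cytosolic chaperones, had 19.1, 11.6 and 6.67 TPM. Each library was below the one before, and the ratio from −35 d to +3 d was −1.52 (−2.08 to −0.98; adjusted p = 9.4e-09, Audic-Claverie exact test). It was the only import gene downregulated between these libraries on both scales, with a TMM ratio of −1.02, just past the fold threshold. TOMM40 had 9.98, 11.1 and 4.28 TPM, from 59, 62 and 25 tags, and was downregulated in stage II (−1.37, −2.11 to −0.68) and from −35 d to +3 d (−1.22). With TMM scaling the ratios were −1.07, which did not pass the FDR threshold, and −0.72. TOMM40L, its paralog, had 15.7, 12.2 and 7.53 TPM and was called from −35 d to +3 d (−1.06) on the TPM scale alone. The small subunits TOMM5, TOMM6 and TOMM7 help to assemble the pore. TOMM5 had 78.1, 63.6 and 35.2 TPM and was called from −35 d to +3 d (−1.15), again on the TPM scale alone. TOMM6 had 111, 115 and 87.1 TPM, the most tags of any import gene, and was not called. TOMM7 had 46.7, 32.2 and 36.4 TPM and was not called either.

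The presequence translocase, with 3 listed genes, gave no call on either scale. On the TPM scale 9.07%, 13.5% and 18.6% of all genes were called in stage I, in stage II and from −35 d to +3 d. TIMM17B, a subunit of the channel, had 61.4, 57.9 and 40.9 TPM. TIMM23, the channel subunit that names the complex, had 18.8, 23.6 and 12.0 TPM, and its stage II ratio of −0.98 was just inside the 2-fold threshold. TIMM50, the receptor of the complex, had 19.4, 19.3 and 16.3 TPM.

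Of the 6 genes of the small TIMM chaperones and the carrier translocase, 1 was upregulated in stage I (16.7%, against 2.62% of all genes) and 2 were downregulated in stage II (33.3%, against 10.4%), with the same counts on the TMM scale. All 6 ratios in stage II were below 0 on both scales. Among all genes with at least 1 TPM, 5052 (TPM scale) and 3792 (TMM scale) of 7569 were. From −35 d to +3 d, 1 was upregulated and 2 were downregulated, and with TMM scaling the 1 upregulated gene alone was called, where 18.6% and 11.2% of all genes were called. TIMM8B had 14.4 TPM at −35 d, 47.6 TPM at −7 d and 38.3 TPM at +3 d, from 85, 266 and 224 tags. It was low at −35 d alone. It was upregulated in stage I, with a log2 ratio of 1.73 (1.37 to 2.10; adjusted p = 8.2e-24, Audic-Claverie exact test), and from −35 d to +3 d (1.41, 1.05 to 1.79). Its stage II ratio was −0.31 on the TPM scale, −0.00 on the TMM scale, and not called. TIMM8A, its paralog, had 9.64, 14.1 and 3.76 TPM, from 57, 79 and 22 tags. It was lowest at +3 d, with a log2 ratio of 0.55 in stage I that was not called, and was downregulated in stage II (−1.91, −2.66 to −1.21; adjusted p = 1.2e-08, Audic-Claverie exact test). TIMM13, the partner of TIMM8A in a hexamer, had 42.4, 67.6 and 21.9 TPM. It was highest at −7 d, with a log2 ratio of 0.67 in stage I that did not reach 2-fold, and was downregulated in stage II (−1.63, −1.93 to −1.33; adjusted p = 6.5e-31, Audic-Claverie exact test). These calls of TIMM8B, TIMM8A and TIMM13 held with TMM scaling. TIMM8A was also downregulated from −35 d to +3 d (−1.36, −2.14 to −0.62), a call that was lost with TMM scaling (−0.86). TIMM10, which forms a hexamer with TIMM9, had 15.7, 13.1 and 6.84 TPM and was called from −35 d to +3 d (−1.20) on the TPM scale alone. TIMM9 had 1.86, 1.79 and 1.20 TPM. TIMM22, the pore of the carrier translocase, had 9.64, 8.94 and 4.96 TPM and was not called.

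Shares of 1 member in the tags of a pair do not depend on the scaling of the libraries. The pairs were picked after their values were seen, and no test was made. TIMM8B made up 59.9% (Wilson 51.6 to 67.6) of the tags of TIMM8B and TIMM8A at −35 d. The share was 77.1% (72.4 to 81.2) at −7 d and reached 91.1% (86.8 to 94.0) by +3 d. Each library was above the one before, without overlap of the intervals. TIMM8A made up 18.5%, 17.3% and 14.7% of the tags of TIMM8A and TIMM13, and these intervals overlapped. SLC25A5 made up 7.26% (6.56 to 8.03), 8.12% (7.45 to 8.84) and 5.14% (4.49 to 5.88) of its tags with SLC25A6, lowest at +3 d. TOMM70A made up 19.3% (16.3 to 22.6) of its tags with TOMM20 at −35 d. In the later libraries its share was 11.0% (8.75 to 13.8) and 13.3% (9.86 to 17.6), and the intervals at −35 d and +3 d overlapped. The share of TOMM40L with TOMM40 was 61.2%, 52.3% and 63.8%, with overlapping intervals.

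**Figure D4:**
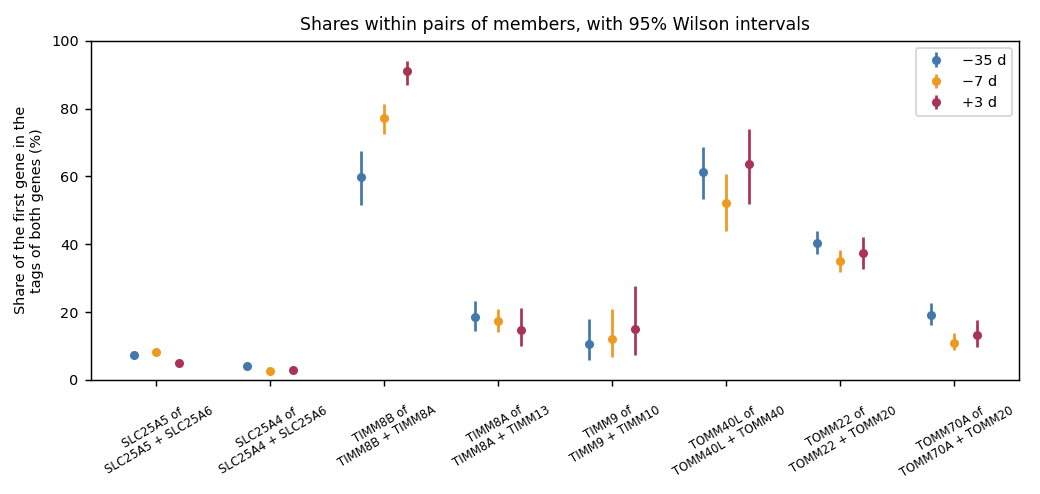
Share (%) of the first gene in the tags of both genes of 8 pairs of members at −35 d (blue), −7 d (orange) and +3 d (red), with 95% Wilson intervals for counting error. The share of TIMM8B is 59.9% at −35 d and 91.1% at +3 d, while the intervals of TIMM8A with TIMM13, TIMM9 with TIMM10 and TOMM40L with TOMM40 overlap across libraries.

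Other import genes were taken from a fixed list of chaperones, proteases and assembly factors, of which 21 were listed. In stage I, 1 of them was called (4.76%, below the 9.07% of all genes): CHCHD4, the receptor that oxidises small TIMM proteins on entry, with 19.1, 44.7 and 28.6 TPM, was upregulated. In stage II, 5 were downregulated (23.8%, against 10.4% of all genes). The median log2 ratio was −0.96, beside −0.31 for all genes, and −0.65 on the TMM scale. They were HSPA9, the motor chaperone of the matrix, with 51.2, 71.7 and 19.8 TPM, PHB, a prohibitin, with 92.0, 117 and 31.5 TPM, HSPE1, a folding chaperone, with 216, 270 and 103 TPM, MTX2, an outer membrane factor, with 34.7, 42.0 and 16.8 TPM, and ROMO1, a small inner membrane protein, with 161, 170 and 81.8 TPM. All 5 were highest at −7 d and lowest at +3 d. With TMM scaling 4 of them stayed downregulated (19.0% of the list, against 4.9% of all genes), since the ratio of ROMO1 was −0.75. Between −35 d and +3 d, 5 were downregulated (HSPA9, PHB, HSPE1, MTX2 and OXA1L) on the TPM scale, or 23.8% against 16.3% of all genes. With TMM scaling, 1 was downregulated (PHB), where 4.94% of all genes were, and 2 were upregulated (CHCHD4 and IMMP1L, a peptidase subunit), where 6.23% of all genes were, and IMMP1L was then upregulated in stage I too.

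Of 15 listed genes for other channels and carriers of the mitochondrial membranes, 0 were called in stage I, where 9.07% of all genes were, and 6 were downregulated in stage II. These were UCP2, CPT2, SFXN1, SFXN2, SFXN5 and LETM1, or 40.0% of the list where 10.4% of all genes were downregulated. With TMM scaling 2 of them were downregulated (UCP2 and SFXN2), or 13.3%, beside 4.9% of all genes. UCP2, an SLC25 family member under another symbol, had 64.1, 59.5 and 22.2 TPM, and was downregulated in stage II on both scales (−1.42, −1.72 to −1.12). CPT2, which acts next to SLC25A20 in the uptake of fatty acids, had 34.7, 20.6 and 10.3 TPM, and was downregulated from −35 d to +3 d on both scales (−1.76, −2.20 to −1.33). Between −35 d and +3 d, 7 of these genes were downregulated on the TPM scale (46.7%, against 16.3% of all genes), and 2 (CPT2 and UCP2) with TMM scaling (13.3%, against 4.94%).

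Nuclear genes of other mitochondrial machines were set beside the members. Of 73 subunits of the respiratory chain and ATP synthase, 19 were downregulated in stage II (26.0%, against 10.4% of all genes) and 0 were upregulated, with a median log2 ratio of −0.79. Of 68 mitochondrial ribosomal protein genes, 11 were downregulated in stage II (16.2%), with a median of −0.68. With TMM scaling, 2 (2.74%) and 4 (5.88%) genes of these lists were downregulated, below or near the 4.9% of all genes, and the medians were −0.48 and −0.37. The stage II medians of the import genes, the respiratory chain and the mitochondrial ribosome thus lay between −0.84 and −0.68, and that of the carriers at −0.35. From −35 d to +3 d the medians were −0.75 for the respiratory chain, −0.65 for the mitochondrial ribosome, −0.95 for the import genes and −0.66 for the carriers, beside −0.53 for all genes. On the TMM scale they were −0.25, −0.15, −0.45 and −0.16, beside −0.03. Between these libraries, 27 respiratory chain genes (37.0%) and 11 mitochondrial ribosomal protein genes (16.2%) were downregulated, against 16.3% of all genes, and 0 were upregulated. With TMM scaling, 10 respiratory chain genes were downregulated and 2 upregulated, and 4 and 1 of the mitochondrial ribosomal protein genes. In either direction these were 16.4% and 7.35%, against 11.2% of all genes. No difference between these lists was tested.

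Levels of cell type markers also differed between the libraries, and not all in the same order. Markers of luminal epithelium, of which 10 of 12 were listed, summed to 3410, 17806 and 83891 TPM. CSN3 was the most abundant at −35 d and CSN2 in the later libraries. BTN1A1 (4.40, 42.6 and 85.9 TPM) was higher in each later library, as CSN2, CSN3 and LALBA were. EPCAM (498, 293 and 210 TPM), KRT8 (297, 157 and 164 TPM), CLDN4 (95.4, 46.1 and 66.2 TPM) and CDH1 (8.79, 1.97 and 2.91 TPM) were highest at −35 d. ELF5 (271, 353 and 155 TPM) and CLDN7 (106, 108 and 77.5 TPM) were highest at −7 d and lowest at +3 d. KRT18 and KRT19 were not listed. Markers of dividing cells summed to 65.6, 153 and 17.3 TPM. In stage II all 10 listed markers of dividing cells were downregulated, and 9 of them with TMM scaling, against 10.4% and 4.9% of all genes. From −35 d to +3 d, 7 of the 10 were downregulated, and 2 with TMM scaling, against 16.3% and 4.94% of all genes. Macrophage markers summed to 440, 304 and 547 TPM (C1QB the most abundant), markers of smooth muscle and myoepithelium to 804, 440 and 851 TPM, and adipocyte markers to 325, 216 and 456 TPM (FABP4 the most abundant, with LIPE and UCP1 not listed and PLIN4 at 0 in the −7 d and +3 d libraries). T cell markers summed to 201, 120 and 123 TPM and endothelial markers to 174, 183 and 256 TPM. ENG (96.5, 129 and 170 TPM) was the only endothelial marker higher at −7 d than at −35 d. The stage I median log2 ratio of the 5 endothelial markers with at least 1 TPM was −0.50. Erythrocyte markers had at most 0.676 TPM. The part of these cell types in the levels of the carrier and import genes was not tested.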

How the data were processed

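The authors sequenced the 3' tags of 3 pooled libraries, removed adaptor, unclear, wrong-sized and single-copy tags, and assigned clean tags (21 bases long) to CATG sites of the transcripts of the bovine genome UMD 3.1, allowing 1 mismatch. The deposited counts are copies of each distinct tag and, per gene, unambiguous tags. Tags of several genes were left out by the authors, so that close paralogs can lose tags. The deposited TPM values were made by the authors from gene counts and clean tag totals. The software used was not given in the sources used here.

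Gene tables were joined by accession, with 0 tags for a gene not listed. The Audic-Claverie exact test, two-sided, was run on the counts and clean tag totals with Benjamini-Hochberg adjustment over all genes with a tag in either library. Genes were called at FDR 0.001 and 2-fold, with 0.01 TPM in place of 0. Medians used 0.5 added tags and left out genes averaging under 1 TPM. No ratio is given with 3 or fewer tags in a library. No column of other samples was used. Genes named in full were all called members and the 3 with the most tags in any library. Others were named with their levels or ranges. The members, gene lists and tests were chosen with earlier results of these data known. Alternatives were TMM (edgeR 4.0.16), size factors (DESeq2 1.42.0), totals without genes over 1%, other low-count rules, a 3-fold threshold, Fisher's exact test, and the exact test of edgeR with a biological coefficient of variation set to 0.2 or 0.4. Medians of gene groups on the TMM scale, pair shares and sums without SLC25A6 were added after seeing the data. Python 3.11.15, scipy 1.17.1, pandas 2.3.3 and R 4.3.3 were used, and scripts were tested on simulated data. Of 48 accessions, 46 matched a RefSeq gene table of ARS-UCD2.0, used for names only, and 44 had the same symbol (TOMM70A is TOMM70 there). Promoter motifs, protein identity and the tags of single genes were not analysed here. The values of 1 member are not reported here, although it is part of all counts, sums and medians.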

Additional observations from a re-analysis of the deposited data

Results flagged for a closer look

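SLC25A35 moved in opposite directions in the 2 stages. Its log2 ratio was 1.34 in stage I and −3.71 in stage II, from 89, 213 and 17 tags at −35 d, −7 d and +3 d. Both ratios take the −7 d library, and the difference between the stages was not tested. From −35 d to +3 d, without the −7 d library, the log2 ratio was −2.37, or −1.87 on the TMM scale, and called on both. A reversal between the stages is not peculiar to SLC25A35. By the paper's counts, most genes that differed in both stages reversed, and more of them rose first than fell first. FASN, ACSS2 and the summed markers of dividing cells also went up and then down on the TPM scale.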

How the results depend on the processing

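No paired analysis was possible because each time point had 1 library, and for the same reason no library could be left out. The number of members called in stage I was 4, and became 1 (SLC25A48) and 0 with edgeR's exact test at an assumed coefficient of variation of 0.2 and 0.4. The 10 calls of stage II became 6 with TMM scaling, 5 with DESeq2 size factors, 6 with totals without genes over 1%, 3 at 3-fold, and 1 (SLC25A35) and 0 with the assumed coefficients of 0.2 and 0.4. The 16 calls from −35 d to +3 d became 5, 5, 7 and 4 under the first 4 of these settings, and 0 with either assumed coefficient. Over all genes, 813, 1189 and 1672 calls in the 3 comparisons became 54, 160 and 156 at a coefficient of 0.2, 3, 8 and 14 at 0.4, and 317, 440 and 659 at 3-fold. In stage II the calls over all genes became 946 with TMM scaling, 937 with DESeq2 size factors and 947 with totals without genes over 1%. From −35 d to +3 d they became 1004, 992 and 1039 in the same order. At 0.4, 1, 3 and 3 members had an unadjusted p under 0.05, beside 3.76%, 4.63% and 6.31% of all genes, and at 0.2 the numbers were 5, 15 and 18, beside 15.4%, 20.1% and 26.8%. Of 30 member calls, TMM scaling kept 14, DESeq2 size factors 13 and totals without genes over 1% 16, and none changed direction. The other settings kept each number of calls within 1.5 times.

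The median log2 ratio of the members in stage I, −0.09, turned to 0.10 with TMM scaling, 0.10 with DESeq2 size factors and 0.015 at a minimum mean of 5 TPM. In stage II, −0.58 became −0.27, −0.26 and −0.27 with TMM, DESeq2 and totals without genes over 1%, and from −35 d to +3 d, −0.69 became −0.20, −0.18 and −0.33. With no tags added and, in the stages, the 1 member at 0 tags set at 3 tags, the medians were −0.09, −0.60 and −0.70. TMM scaling turned the sign of these group medians: in stage I the other channels (0.084), the import genes (0.14), carboxylate carriers (0.18), amino acid carriers (0.058), cofactor carriers (0.14), presequence translocase (0.18) and respiratory chain (0.18), in stage II the amino acid carriers (0.14) and cofactor carriers (0.084), and from −35 d to +3 d the cofactor carriers (0.079) and citrate and NADPH enzymes (0.064). The shift between scales moves all ratios alike, and which scale fits the tissue was not tested. Members with few tags, such as SLC25A15, SLC25A16, SLC25A41 and TIMM9, could show only large differences at this depth.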
